A study of Mus musculus with 6 samples.

Results

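Integrins are the transmembrane receptors that hold cells to the extracellular matrix and to each other. They were described here through every row of the transcript table whose gene symbol begins with Itga or Itgb. The rule used names only and gave 30 of the 23930 genes in the table, of which 25 encode integrin subunits (17 alpha, 8 beta) and 5 are related genes that are not classed here as subunits. CD31-positive cells were taken by flow sorting from tumours formed under the skin of C57/Bl6 mice, 2 weeks after injection of the mouse lung cancer line LLC (Lewis Lung Carcinoma). Tumours came from control LLC cells (3 libraries, replicates 1, 2 and 3) or from LLC cells that overexpressed BMP9, a bone morphogenetic protein that circulates in blood and acts on endothelium (3 libraries, replicates 4, 5 and 6). The overexpression was thus a property of the LLC cells, while the host mice carried no labelled change. Whether each library is a separate animal is not labelled. P-values therefore reflect the spread among these 6 libraries, and that spread may be technical.

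An integrin is a pair of 1 alpha and 1 beta subunit, and the pair sets what the receptor binds. The beta2 integrins of leukocytes pair Itgb2 with Itgal, Itgam, Itgax or Itgad and bind cell surface ligands such as the ICAM proteins and, for some pairs, complement fragments and fibrinogen. Itga1, Itga2 and their relatives bind collagen, Itga3, Itga6 and Itga7 bind laminin, and Itga5, Itga8, Itga2b and Itgav bind ligands that carry the short peptide motif RGD (arginine, glycine, aspartate), such as fibronectin. Endothelial cells use mainly the matrix-binding pairs, while circulating leukocytes also carry the beta2 and beta7 pairs.

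The values were RPM, the reads of 1 short amplicon per gene scaled to the total reads of a library. Amplicons differ in yield, so levels of different genes are not compared here, and each gene is compared with itself between groups. Libraries held from 1321762 to 28380957 reads, the deepest being BMP9 replicate 6, and 3 reads corresponded to between 0.106 and 2.27 RPM. A gene was tested if 3 or more libraries reached 5 RPM. Of the 9460 such genes, 35.2% passed an adjusted p of 0.05 in limma (12.7% higher and 22.5% lower in BMP9 libraries), and their median log2 fold change was -0.24 as deposited and 0.00392 with TMM scaling. Pecam1, which encodes CD31, was at 363 to 532 RPM in control and 247 to 353 RPM in BMP9 libraries. The 12 endothelial markers used here, among them Cdh5 at a mean of 9.81 and 6.15 RPM, summed to only 24.9 to 77.9 and 23.8 to 25.3 RPM, with 3 of the 12 below 1 RPM in both group means and none at 0 in all libraries. T and NK cell markers (14 genes) summed to 8885 to 9347 RPM in control and 949 to 1575 RPM in BMP9 libraries, with the CD3 chain gene Cd3e at means of 560 and 105 RPM. Macrophage and monocyte markers (14 genes) summed to 4209 to 6480 and 13740 to 20110 RPM, with the lysosomal protein gene Cd68 at means of 119 and 831 RPM. That the libraries hold endothelial cells rests on the labels. In bulk samples such as these, fewer cells of a type and less RNA per cell cannot be told apart.

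Integrin transcripts changed in both directions. Of the 30 genes 21 passed the filter on low values and could be tested. Of these, 12 (57.1%) passed the test, against 35.2% of all tested genes, with 8 higher (12.7% of all genes) and 4 lower (22.5%) in BMP9 libraries. Itgam, Itgb2, Itga9, Itga5, Itga8, Itga2b, Itgb5 and Itga6 rose, and Itgal, Itga4, Itgb7 and Itga2 fell. Itga8 passed the filter only through the BMP9 libraries, so it could be tested only because it was high there. The groups did not overlap for 14 of the 21, against 48.1% of all tested genes. The median log2 fold change of the 21 was -0.03, beside -0.24 for all genes. The call of 9 of the 12 held in every alternative in which the gene was tested, and the exceptions were Itga6, Itga8 and Itgb7. Without BMP9 replicate 4 the number of lower members was 9, not 4, and only 5 members were higher with a mean of at least 20 RPM as the filter, which leaves 17 genes. The labels carry 2 run time stamps. The earlier one holds all controls and BMP9 replicate 4, and the later one holds the other BMP9 libraries and no control. Values within the earlier stamp set replicate 4 alone against the controls. They are given below for the tested integrin genes as values of 1 BMP9 library, with the spread taken from the controls, and are not separate evidence.

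**Figure D1:**
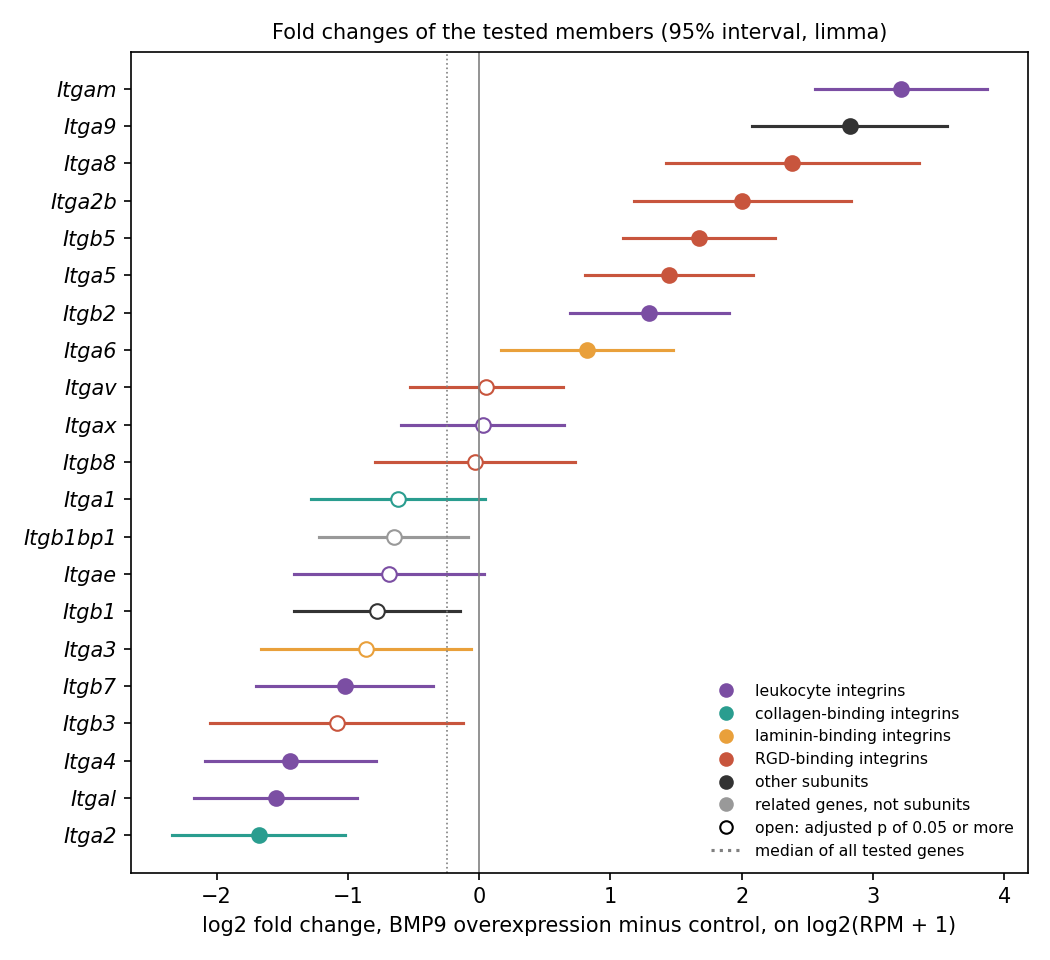
Log2 fold change of the 21 tested members, BMP9 overexpression minus control on log2(RPM + 1), with 95% intervals from limma (3 libraries per group). Filled points passed an adjusted p of 0.05, colours give the class, and the dotted line marks the median of all tested genes (-0.24). Itgam (3.21) and Itga9 (2.82) are at the top and Itga2 (-1.68) at the bottom.

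Promoter sequence was examined for the members with a promoter entry. Of those printed, Itgam and Itgax share ancestry and position but differ in response. Itga5 and Itga4 differ in response but lie on different chromosomes and are not a matched pair. Itgam (chr7:128062640-128118491, mm10) and Itgax (chr7:128129547-128150657) are neighbours on the plus strand, with Itgad next to them (chr7:128154376-128223816), and Itgal lies on the same chromosome (chr7:127296260-127335138). The 250 bases upstream of the RefSeq start (GRCm38.p6) are shown for Itgam, which rose, for its neighbour Itgax, which did not pass the test, for Itga5, which rose, and for Itga4, which fell. Capitals mark the letters GAGGAA on either strand, the core of the box bound by PU.1, a transcription factor of myeloid cells. In order, the windows are chr7:128062390-128062639 (plus strand), chr7:128129300-128129549 (plus), chr15:103366792-103367041 (minus) and chr2:79255176-79255425 (plus).
Itgam: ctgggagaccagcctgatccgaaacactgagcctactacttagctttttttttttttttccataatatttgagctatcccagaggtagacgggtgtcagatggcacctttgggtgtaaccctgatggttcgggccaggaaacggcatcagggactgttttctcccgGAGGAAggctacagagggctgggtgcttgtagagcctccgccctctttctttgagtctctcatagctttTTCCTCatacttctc
Itgax: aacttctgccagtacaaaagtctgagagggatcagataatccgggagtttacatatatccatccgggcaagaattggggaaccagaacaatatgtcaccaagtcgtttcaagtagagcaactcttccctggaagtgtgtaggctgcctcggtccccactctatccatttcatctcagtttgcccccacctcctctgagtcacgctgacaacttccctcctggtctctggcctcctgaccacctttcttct
Itga5: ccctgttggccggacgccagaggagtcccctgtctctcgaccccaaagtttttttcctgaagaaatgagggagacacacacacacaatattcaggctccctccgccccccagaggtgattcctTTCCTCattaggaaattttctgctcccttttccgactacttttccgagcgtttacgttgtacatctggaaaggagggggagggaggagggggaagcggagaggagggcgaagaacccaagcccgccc
Itga4: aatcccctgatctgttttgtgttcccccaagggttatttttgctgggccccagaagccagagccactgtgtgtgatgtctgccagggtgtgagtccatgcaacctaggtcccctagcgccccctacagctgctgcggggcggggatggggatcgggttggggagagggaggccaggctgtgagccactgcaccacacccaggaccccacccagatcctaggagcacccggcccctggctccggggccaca

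Itgam held GAGGAA at 84 bases before the start on the plus strand and at 15 bases on the opposite strand, and Itga5 held it once, at 127 bases on the opposite strand. Itgax and Itga4 did not hold these letters in the window. The windows shown do not stand for all members. Of the others that rose, Itga2b held GAGGAA, while Itga8, Itga9 and Itgb5 did not. The only Itga9 window (chr9:118711442-118711691) lies inside the gene, which starts at 118606690 on the plus strand. The sequence before that start of Itga9 was not examined. Itga2 and Itgb7, which fell, did not hold it. Of the others not called, Itgav, Itgb1 and Itga3 (not in every entry) held it, and Itga1, Itgb8 and Itgb1bp1 did not. Itgal, Itgb2, Itga6, Itgae and Itgb3 had no promoter entry. Of 23 promoter entries of 21 members, 9 held GAGGAA (39.1%), beside 23.3% of all 32851 windows of the same length. GGCGCC, a GC-rich sequence to which SMAD proteins of the BMP pathway can bind, was in 1 of the 23 (Itgb1) and in 9.59% of all windows. TGTGGT, a RUNX-type sequence, was in 2 of 23 (8.7%) and 14% of all windows, and GGGCGG, an Sp1-type sequence, in 8 of 23 (34.8%) and 32.7%. These matches are a description of letters and do not show binding.

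Among leukocyte integrins the alpha partners of Itgb2 moved apart. Itgam rose, Itgal fell and Itgax did not pass the test. Itgam encodes CD11b, the alpha chain of the complement receptor CR3 of macrophages, monocytes, neutrophils and NK cells. It was at 420, 299 and 634 RPM in control replicates 1, 2 and 3 and at 3709, 4301 and 4021 RPM in BMP9 replicates 4, 5 and 6. Every BMP9 library was far above every control library, and the fold of the means was 8.89 (log2 fold change 3.21, SE 0.31, limma adjusted p = 5.6e-06). Itgal encodes CD11a, the alpha chain of LFA-1, with which lymphocytes bind ICAM proteins. Its levels were 704, 516 and 680 RPM in control and 198, 309 and 160 RPM in BMP9 libraries. The groups did not overlap, and control was 2.85-fold higher (log2 fold change -1.55, SE 0.29, adjusted p = 9e-04).

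Itgax encodes CD11c, which dendritic cells, many macrophages and some lymphocytes carry. It was at 300, 440 and 457 RPM in control and 299, 543 and 393 RPM in BMP9 libraries, so the groups overlapped. Its log2 fold change was 0.03 with a 95% interval of -0.59 to 0.65 (adjusted p = 0.95). Itgb2, the common beta chain CD18, was at 301, 280 and 455 RPM in control and 1053, 782 and 692 RPM in BMP9 libraries. All 3 BMP9 libraries were above all control libraries, and the rise was 2.44-fold in the means (log2 fold change 1.30, SE 0.28, adjusted p = 0.0027). Itgad, the CD11d chain, was below the filter, with 4 reads in control and 1 read in BMP9 libraries.

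The share of each alpha chain within the reads of the 4 Itgb2 partners changed accordingly. Itgam took 29.7% ± 5.99 of these reads in control and 86.5% ± 2.66 in BMP9 libraries (SD, n = 3 each). Itgal went from 43.0% ± 5.74 to 4.73% ± 1.25, and Itgax from 27.3% ± 7.12 to 8.75% ± 1.72. As amplicons differ in yield, these are shares of reads and not of receptor molecules.

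The chains that pair with Itgb7 or Itgb1 on lymphocytes were lower or not called. Itga4, which forms VLA-4 with Itgb1 and the gut-homing receptor with Itgb7 (chr2:79255426-79333123), was at 762, 602 and 460 RPM in control and 146, 250 and 288 RPM in BMP9 libraries. The groups did not overlap, and Itga4 fell by 1.44 on the log2 scale (SE 0.31, adjusted p = 0.0021). Itgb7 was at 105, 128 and 74.5 RPM in control and 69.9, 46.3 and 35.7 RPM in BMP9 libraries, with the highest BMP9 library just below the lowest control library. It fell by 1.02 (SE 0.32, adjusted p = 0.021), a call that was lost in 9 of 17 alternatives, among them the earlier stamp (-0.51, adjusted p = 0.33) and TMM scaling (-0.77, adjusted p = 0.075). Itgae, which encodes CD103 of tissue-resident T cells and some dendritic cells, was at 60.9, 56.7 and 53.5 RPM in control and 60.8, 24.0 and 29.1 RPM in BMP9 libraries. BMP9 replicate 4 was at the control level and the others were below it, so the value did not pass (log2 fold change -0.69, adjusted p = 0.13), and its direction turned within the earlier stamp (0.09, adjusted p = 0.87). Without replicate 4 it was called (-1.08, adjusted p = 0.0078).

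**Figure D2:**
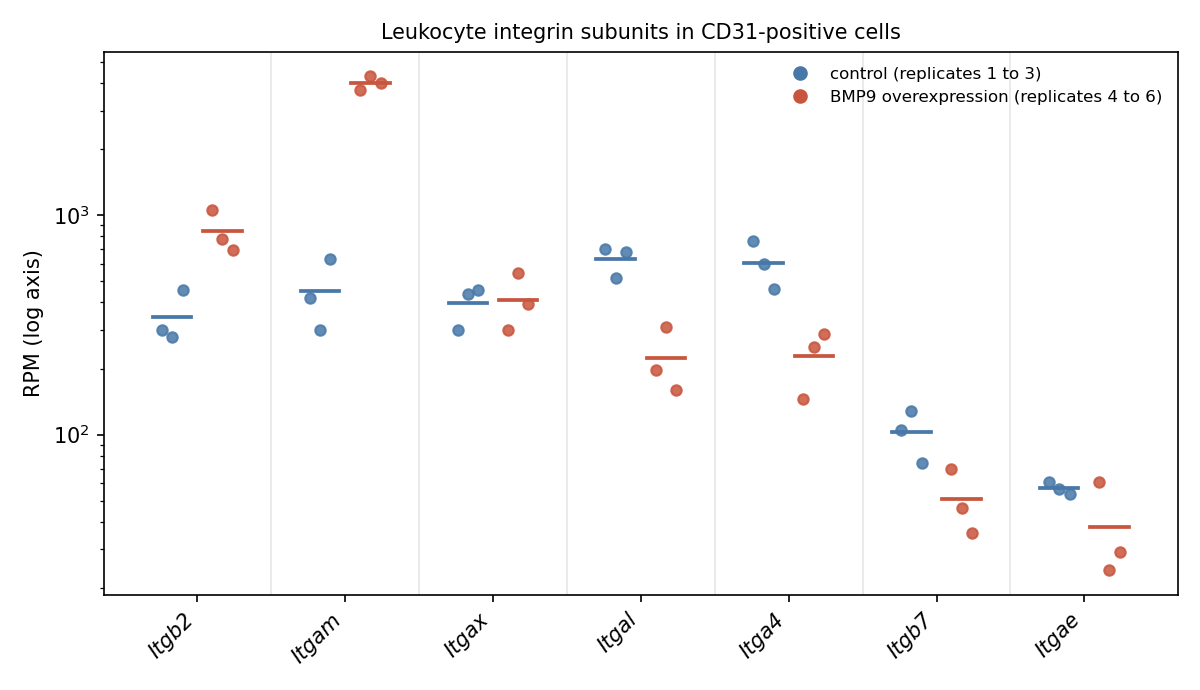
RPM (log axis) of the 7 tested leukocyte integrin subunits in each library, with bars at the group means (3 libraries per group). Itgam lies at 299 to 634 RPM in control and 3709 to 4301 RPM in BMP9 libraries, Itgal and Itga4 are lower in all BMP9 libraries, and Itgax overlaps.

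Within the earlier stamp, where replicate 4 is the lone BMP9 library, the log2 fold changes were 3.11 for Itgam, 1.64 for Itgb2, -1.66 for Itgal, -2.02 for Itga4 and -0.39 for Itgax. The marker sums of T and NK cells (14 of 14 genes lower) and of macrophages and monocytes (11 of 12 tested genes higher) moved with these chains, and their part in the result was not tested. The median log2 fold change of the tested markers was -2.85 for T and NK cells and 2.32 for macrophages and monocytes. Neutrophil markers (10 genes) summed to only 11.4 to 32 RPM in control and 94.0 to 210.2 RPM in BMP9 libraries, with 1 of them at 0 in all libraries. Only 3 of the 10 passed the filter, and these were called higher, while 4 were below 1 RPM in both group means. Of the macrophage and neutrophil markers called higher, Cd163 and S100a8 passed the filter only through the BMP9 libraries.

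Itgb1, the most widely shared beta chain, with which the collagen-binding and most laminin-binding alpha chains pair (chr8:128685654-128733200), was at 1273, 1643 and 1022 RPM in control and 874, 552 and 881 RPM in BMP9 libraries. All BMP9 libraries were below all controls, but the difference did not pass the test (log2 fold change -0.78, SE 0.30, adjusted p = 0.053). It was called after quantile normalization (-0.90, adjusted p = 0.024) and without BMP9 replicate 4 (-0.88, adjusted p = 0.029), and was -0.56 within the earlier stamp (adjusted p = 0.28).

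Itga9 is the closest relative of Itga4 and pairs with Itgb1 to bind tenascin, osteopontin and VCAM1 (chr9:118606690-118901003). It was at 8.95, 3.78 and 6 RPM in control and 55.7, 44.4 and 44.7 RPM in BMP9 libraries. The BMP9 values lay close together and far above control, a 7.73-fold rise in the means (log2 fold change 2.82, SE 0.35, adjusted p = 3.2e-05) that was 3.03 within the earlier stamp. Thus, of the alpha4 and alpha9 pair, one fell and the other rose.

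Of the collagen-binding chains Itga2 fell. Itga2, the CD49b chain that mouse NK cells and platelets carry (chr13:114833081-114932100), was at 54.8, 81.7 and 81.5 RPM in control and 19.8, 28.6 and 17.8 RPM in BMP9 libraries. The groups were apart, and Itga2 fell by 1.68 on the log2 scale (SE 0.31, adjusted p = 0.00077), with -1.8 within the earlier stamp. Itga1, the CD49a chain of mesenchymal cells and tissue-resident lymphocytes, was at 155, 158 and 121 RPM in control and 145, 63.5 and 88.0 RPM in BMP9 libraries. BMP9 replicate 4 was within the control range, and Itga1 did not pass (-0.62, adjusted p = 0.14; 0.02 within the earlier stamp and -0.93 without replicate 4, adjusted p = 0.014). Itga11, a fibroblast collagen receptor, had 0 reads in control libraries, which allows up to 0.38 RPM, and 2 reads in BMP9 libraries. Itga10 had no row under that symbol in the transcript table.

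Among laminin-binding chains Itga6 passed the test narrowly. Itga6, the alpha chain CD49f of endothelial and epithelial laminin receptors (chr2:71745616-71858416), was at 127, 92.3 and 122 RPM in control and 283, 129 and 219 RPM in BMP9 libraries. BMP9 replicate 5 was only just above the highest control. Its log2 fold change was 0.82 (SE 0.31, adjusted p = 0.048), and the call was lost in 9 of 17 alternatives, among them when any 1 control library was left out (0.68 to 0.91) or without BMP9 replicate 4 (0.57, adjusted p = 0.13) or 6 (0.76, adjusted p = 0.14). Within the earlier stamp it was 1.32. Itga3 averaged 17 ± 4.09 RPM (control) and 9.23 ± 3.86 RPM (BMP9; SD, n = 3 each) and did not pass (-0.86, adjusted p = 0.088). It was -0.32 within the earlier stamp (adjusted p = 0.63) and was called without BMP9 replicate 4 (-1.13, adjusted p = 0.024). Itgb4, the beta chain of hemidesmosomes and the partner of Itga6 in epithelium, was below the filter at 2.4 to 3.03 RPM in control and 0.68 to 2.03 RPM in BMP9 libraries, and Itga7, a muscle laminin receptor, was at 0.227 to 1.01 RPM over all libraries.

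Of 7 tested RGD-binding members 4 rose, where 12.7% of all genes were called higher and 22.5% lower, and none fell with all libraries in the fit (Itgb3 was called lower without BMP9 replicate 4). The median log2 fold change of the 7 was 1.44. The count and the median include Itga8, which reached 5 RPM in BMP9 libraries only. It entered the test through the group in which it was high. Itga5, the alpha chain of the fibronectin receptor alpha5beta1 (chr15:103344286-103366763), was at 89.0, 49.2 and 80.0 RPM in control and 256, 159 and 178 RPM in BMP9 libraries. All BMP9 libraries exceeded all controls, by 2.72-fold in the means (log2 fold change 1.44, SE 0.30, adjusted p = 0.0019; 1.84 within the earlier stamp). Itgb5, the partner of Itgav in the vitronectin receptor alphavbeta5, which phagocytes use to take up apoptotic cells (chr16:33829665-33949338), was at 64.1, 56.7 and 72.0 RPM in control and 269, 176 and 187 RPM in BMP9 libraries. The lowest BMP9 library was well above the highest control library, and the rise was 3.28-fold in the means (log2 fold change 1.68, SE 0.27, adjusted p = 0.00028; 2.05 within the earlier stamp).

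Itga8 and Itga2b rose from low levels. Itga8, a receptor for nephronectin and fibronectin known from mesenchymal and contractile cells (chr2:12106632-12301922), was at 2.62, 0.757 and 1.5 RPM in control and 6.08, 17 and 16.8 RPM in BMP9 libraries. Those control values correspond to 12, 1 and 3 reads. BMP9 replicate 4 was at less than the level of the others but above all controls, and the log2 fold change was 2.39 (SE 0.45, adjusted p = 0.00097), or 1.49 within the earlier stamp, where the call was lost (adjusted p = 0.12). Itga2b, the CD41 chain of the fibrinogen receptor of platelets and megakaryocytes (chr11:102453297-102470122), was at 8.95, 3.78 and 5.50 RPM in control and 27.3, 37.2 and 17.5 RPM in BMP9 libraries, without overlap (log2 fold change 2.01, SE 0.39, adjusted p = 0.0011; 2.07 within the earlier stamp). Of the platelet and megakaryocyte markers Pf4 and Ppbp passed the filter and rose, Pf4 from a mean of 49.1 to 619 RPM. Ppbp passed the filter only through the BMP9 libraries. Gp6 was at 0 in all libraries, and Gp9, Gp1ba and Gp1bb had means of at most 1.30 RPM, with Gp9 at 0 in all BMP9 libraries.

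Itgb3, the beta chain that pairs with Itga2b on platelets and with Itgav elsewhere, did not rise with Itga2b. It averaged 44.4 ± 15 RPM (control) and 23.2 ± 14.7 RPM (BMP9; SD, n = 3 each) and did not pass (log2 fold change -1.08, adjusted p = 0.074). BMP9 replicate 6 was lowest at 8.07 RPM and replicate 4, at 37.5 RPM, was within the control range. The value was -0.18 within the earlier stamp (adjusted p = 0.78), -0.49 without replicate 6 (adjusted p = 0.37) and -1.54 without replicate 4, where it was called (adjusted p = 0.0083). Itgav, an alpha chain that several beta chains share, was at 124, 93.8 and 87.5 RPM in control and 103, 87.3 and 127 RPM in BMP9 libraries. The groups overlapped throughout, with a log2 fold change of 0.05 and a 95% interval of -0.53 to 0.64 (adjusted p = 0.90; 0.04 within the earlier stamp). Itgb8, which with Itgav activates latent TGF-beta, was at 8.83 ± 2.56 and 8.39 ± 0.644 RPM (SD, n = 3 each; log2 fold change -0.03, 95% interval -0.80 to 0.73, and -0.07 within the earlier stamp). Itgb6, the epithelial partner of Itgav, had 0 reads in all libraries, which allows a level of at most 0.38 RPM over the control and 0.0863 RPM over the BMP9 libraries.

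**Figure D3:**
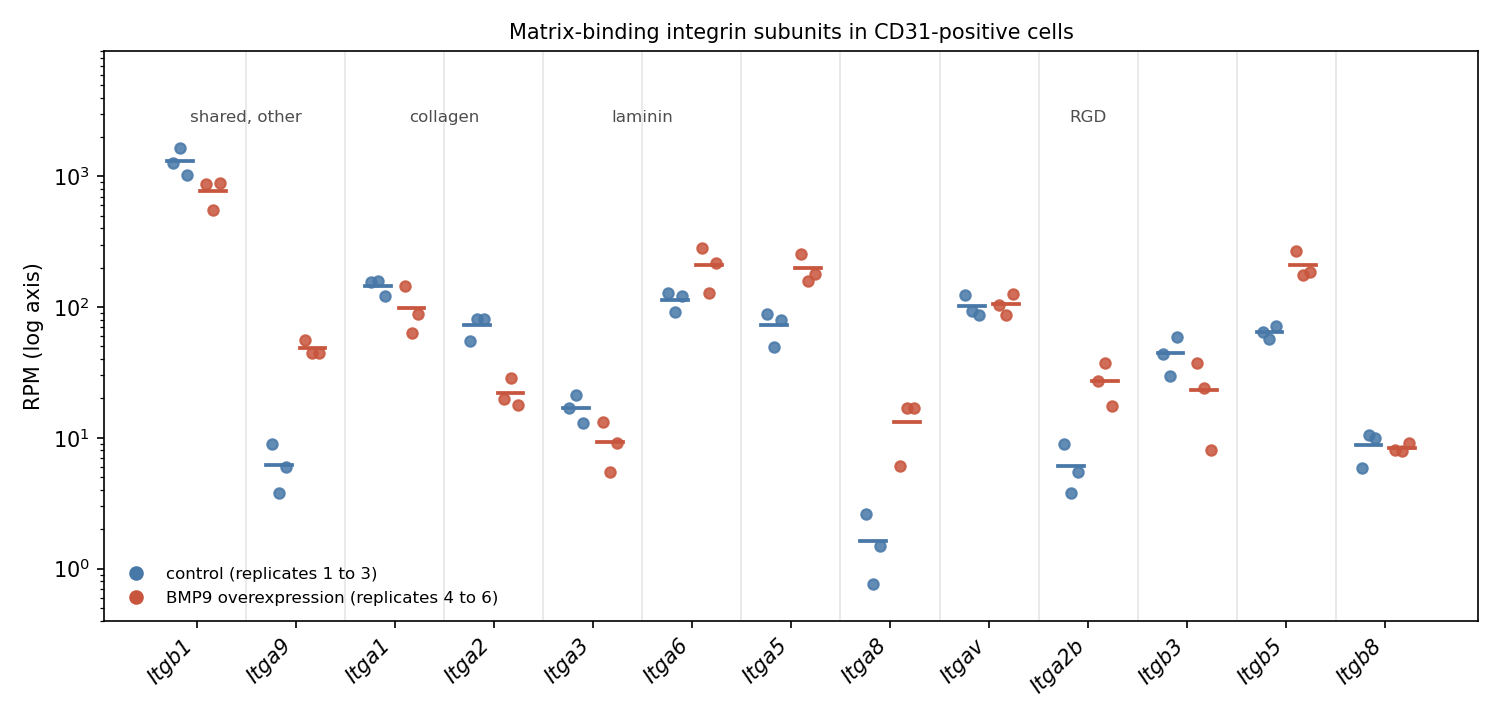
RPM (log axis) of the 13 other tested subunits in each library, grouped by class, with bars at the group means (3 libraries per group). Itga9, Itga5, Itga8, Itga2b and Itgb5 are higher in all BMP9 libraries, Itga2 is lower in all of them, and Itgav and Itgb8 overlap.

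Of the 5 related genes 1 could be tested. Itgb1bp1, which encodes ICAP-1, a protein that binds the tail of the beta1 chain and restrains its activation, was at 136, 131 and 135 RPM in control and 65.8, 97.7 and 94.8 RPM in BMP9 libraries. The groups did not overlap, but the value did not pass (-0.65, SE 0.27, adjusted p = 0.07). Within the earlier stamp, which holds only the lowest of the 3 BMP9 libraries, it was -1.01. Itgb3bp, a centromere protein also called CENP-R, was below the filter at 2.27 to 4.8 RPM in control and 1.01 to 1.13 RPM in BMP9 libraries. Markers of dividing cells summed to 816 to 1162 RPM in control and 108 to 139 RPM in BMP9 libraries, and their part in that value was not tested. Itgb1bp2 was at up to 2.4 RPM, Itgb2l, a beta2-like gene, had 1 and 4 reads in the groups, and Itgbl1 had 0 reads in all libraries.

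Because RPM is relative to library size, 15 pairs of subunits were also compared as ratios of RPM + 1 within each library. Library scaling touches such ratios only through the added 1, which matters for low values such as those of Itga2b. The groups did not overlap for 11 of the 15, with 7 ratios higher and 4 lower in BMP9 libraries. For each of the 11 the exact two-sided permutation p was 0.1, the smallest that 3 against 3 libraries allow (0.136 after Benjamini-Hochberg adjustment over the 15), so this design cannot reach 0.05. Pairs share subunits and are not independent, and most hold a member that was itself called. The share without overlap was not computed for pairs of other genes. Among single tested genes it was 48.1%. The log2 ratio of Itgam to Itgal was -0.74, -0.79 and -0.10 in control and 4.22, 3.79 and 4.64 in BMP9 libraries, a difference of 4.76. Itgam to Itgb2 differed by 1.92, Itgal to Itgb2 by -2.85 and Itgax to Itgb2 by -1.27, each without overlap. Relative to the common beta chain, Itgam was thus higher and Itgal and Itgax were lower in BMP9 libraries.

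Relative to Itgb1, Itga5 was higher by 2.22, Itga6 by 1.60 and Itgav by 0.83 in BMP9 libraries on the log2 scale, in each case without overlap. Itgav thus differed relative to Itgb1 although its own RPM overlapped between groups. Its ratio to Itgb5 was 0.94, 0.72 and 0.28 in control and -1.37, -1.005 and -0.55 in BMP9 libraries, a difference of -1.62. Itga2b to Itgb3 was -2.18, -2.67 and -3.22 in control and -0.44, 0.61 and 1.03 in BMP9 libraries, a difference of 3.09, or 2.25 within the earlier stamp. The ratios of Itga4 to Itgb7 (-0.42, exact p = 0.7), Itga4 to Itgb1 (-0.66, exact p = 0.3), Itgae to Itgb7 (0.34, exact p = 0.3) and Itgav to Itgb3 (1.14, exact p = 0.3) overlapped between groups.

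**Figure D4:**
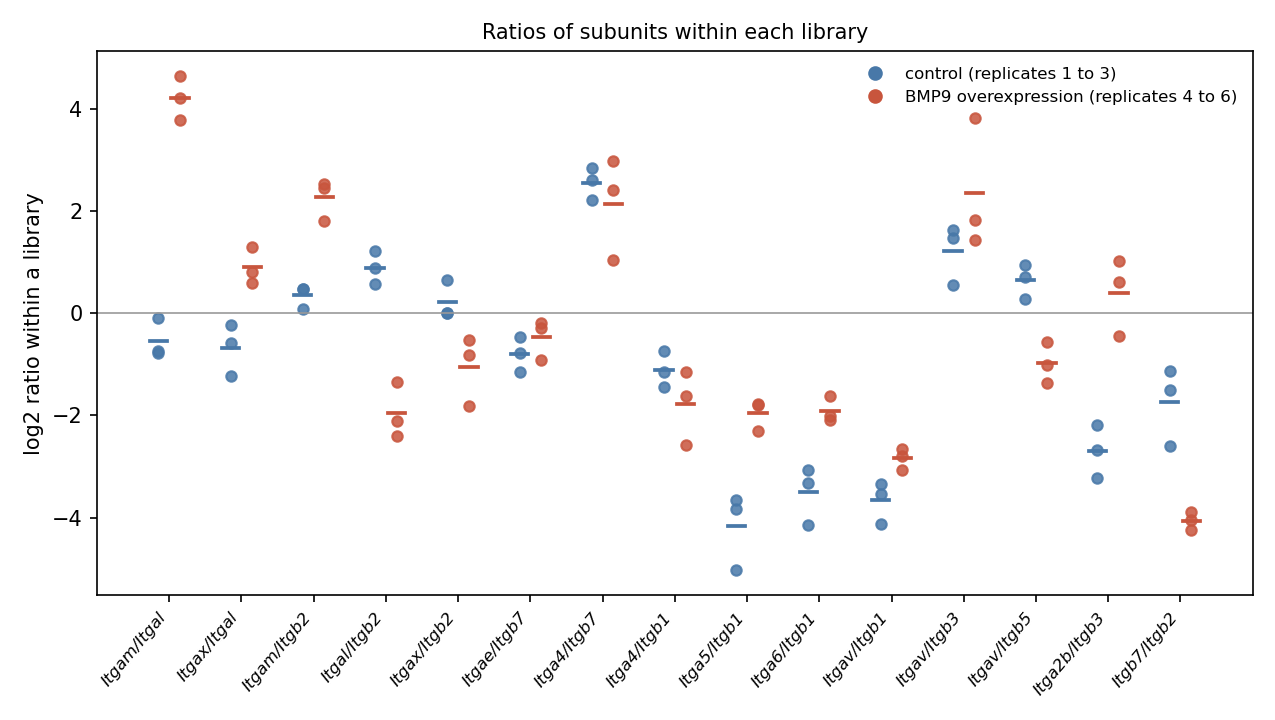
Log2 ratio of the RPM + 1 of 2 subunits within each library for 15 pairs, with bars at the group means (3 libraries per group). Itgam/Itgal shows the widest gap (-0.54 in control, 4.22 in BMP9 libraries), and the Itga4/Itgb7, Itga4/Itgb1, Itgae/Itgb7 and Itgav/Itgb3 ratios overlap.

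Genes that act with integrins were read from 6 lists, in which 46 genes passed the filter, 12 rose and 8 fell. That is 43.5% called (26.1% higher, 17.4% lower), beside 35.2% of all tested genes (12.7% and 22.5%). Of these 20 calls 8 held in every alternative in which the gene was tested, namely Rap1b, Vcl, Parvg, Cd151, F11r, Lamb3, Fn1 and Thbs1. Lamb3 reached 5 RPM in control libraries only, so it entered the test through the group in which it was high. The number lower was 2 within the earlier stamp, 3 with TMM scaling and between 2 and 9 when 1 library was left out. Of 7 tested genes of integrin activation 1 rose and 1 fell (28.6% called, below the 35.2% of all genes; median -0.30). Rap1b, a small GTPase that switches integrins on, was at 472, 419 and 333 RPM in control and 962, 726 and 947 RPM in BMP9 libraries, without overlap (log2 fold change 1.11, SE 0.27, adjusted p = 0.0049). Rap1a, the other Rap1 gene of this list, did not pass and overlapped between groups (-0.30, adjusted p = 0.44). The member that fell was Rasgrp2, which activates Rap1 (-0.79, adjusted p = 0.043), a call lost in 12 of 17 alternatives. Tln1 (-0.42, adjusted p = 0.24) and Fermt3 (-0.45, adjusted p = 0.20), the talin and kindlin that bind beta tails in leukocytes, did not pass.

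Of 15 tested focal adhesion adaptors and kinases 3 rose and 2 fell (33.3% called, close to the 35.2% of all genes; median 0.12). Cd151, a tetraspanin that associates with laminin-binding integrins, rose by 1.34 (SE 0.33, adjusted p = 0.0052), and Vcl, vinculin, by 1.24 (SE 0.27, adjusted p = 0.0029). The parvins, which link integrins to actin through integrin-linked kinase, differed in direction. Parvb rose by 1.04 (SE 0.30, adjusted p = 0.013), a call lost in 4 of 17 alternatives. Parvg, the parvin of blood cells, was at 158, 159 and 132 RPM in control and 44.6, 44.0 and 33.0 RPM in BMP9 libraries and fell by 1.87 (SE 0.27, adjusted p = 0.00011). Actn4, an actin crosslinker, fell by 0.85 (adjusted p = 0.043), a call lost in 11 of 17 alternatives.

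Among ligands the RGD-containing proteins stood at 5 of 9 tested members higher and 0 lower (55.6% higher, beside 12.7% of all genes; median 1.07, beside -0.24 for all genes). Thbs1, thrombospondin 1, was at 215, 455 and 355 RPM in control and 8146, 2296 and 3945 RPM in BMP9 libraries. Its BMP9 levels were spread widely, with replicate 4 highest, but all were above control (log2 fold change 3.68, SE 0.41, adjusted p = 1.5e-05). Fn1, fibronectin, the ligand of alpha5beta1, was at 824, 1268 and 1494 RPM in control and 4606, 3487 and 5306 RPM in BMP9 libraries, without overlap (log2 fold change 1.92, SE 0.32, adjusted p = 0.00032). Edil3, which binds alphav integrins, rose by 1.47 (SE 0.43, adjusted p = 0.015), Tgfb3 by 1.07 (adjusted p = 0.019) and Spp1, osteopontin, by 1.22 (adjusted p = 0.024), and these 3 calls were lost in 3 or 4 alternatives each. Without BMP9 replicate 6 the number of RGD ligands called higher was 2.

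Of 5 tested ligands of leukocyte integrins 2 rose and 1 fell (60% called, beside 35.2% of all tested genes, a share of few genes). F11r, the junctional adhesion molecule JAM-A, which can bind LFA-1, rose by 1.64 (SE 0.33, adjusted p = 0.0016). Vcam1, the endothelial ligand of Itga4 pairs, rose by 1.46 to a mean of only 8 RPM (adjusted p = 0.031), with overlapping groups and a call lost in 7 of 16 alternatives. Icam2 fell by 1.20 (adjusted p = 0.018), a call also lost in 7 of 16 alternatives. Icam1, the main ligand of LFA-1, did not pass (-0.02, adjusted p = 0.97).

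Collagen and laminin chains were low. Of 6 tested collagen chains 1 rose and 2 fell (50% called, beside 35.2% of all tested genes, a share of few genes). Col1a1 of fibrillar collagen was at 1.37 and Col4a1 and Col4a2 of basement membrane at -1.40 and -1.49 on the log2 scale. None of these 3 calls held in every alternative. Of 4 tested laminin chains 2 fell (50% lower, beside 22.5% of all tested genes, again a share of few genes). Lamb3, the beta3 chain of laminin-332, was at 11.8, 9.84 and 9.50 RPM in control and 2.53, 2.27 and 2.01 RPM in BMP9 libraries and fell by 1.8 (SE 0.36, adjusted p = 0.0015). It passed the filter only through the control libraries, so the share of 50% includes a gene that could be tested only because it was high there. Lama5 fell by 1.03 (adjusted p = 0.039), a call lost in 13 of 16 alternatives.

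**Figure D5:**
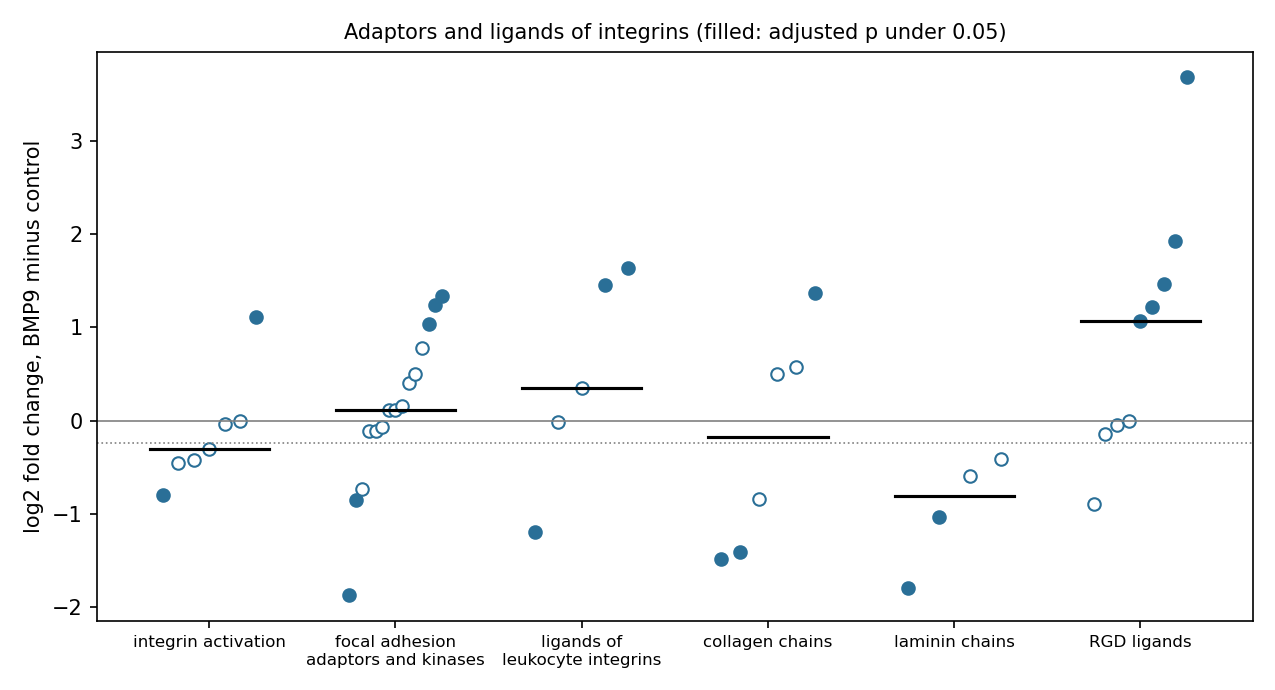
Log2 fold change (BMP9 overexpression minus control, log2(RPM + 1)) of the tested genes in 6 lists of integrin adaptors and ligands, with black bars at list medians and filled points at an adjusted p under 0.05. The RGD ligands have the highest median (1.07) and the laminin chains the lowest (-0.81), and the dotted line is the median of all tested genes (-0.24).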

How the data were processed

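CD31-positive cells were sorted from dissociated tumours, and libraries were made with an Ion AmpliSeq mouse transcriptome panel, per the labels' protocols. The authors deposited RPM values, 1 amplicon per gene. Per the submitters' processing notes the genome build was mm10. The aligner and counter: not given in the sources used here. All nonzero values were whole multiples of 1 read (100% within 0.05 reads), which gave read counts for edgeR 4.0.16, which called 3114 genes, and DESeq2 1.42.0, which called 3317. Groups came from the sample titles. The main test was limma-trend 3.58.1 (R 4.3.3) on log2(RPM + 1) over genes that reached 5 RPM in 3 or more libraries, Benjamini-Hochberg adjusted over all 9460. That scale understates changes of low genes. On simulated reads (9415 genes) it recovered 16.3% of 98 2-fold and 99.0% of 96 4-fold changes. Far fewer genes changed there than the 3330 called in these data, and 1 dispersion served all genes. The adjusted p depends on the share of changed genes, so these rates may not hold here.

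Every integrin row is named. Tested members that were called, or that had a mean of at least 50 RPM in a group, are given by library. Of each list of adaptors or ligands, up to 4 called members of smallest p are named. Tln1, Fermt3, Rap1a, Icam1, Actn4, Spp1, Cd163, S100a8 and the platelet genes other than Pf4 were chosen after their values were seen. One marker gene is not reported here. Members and lists were chosen with earlier results of these data known. Alternatives were other pseudocounts (0.5, 5), filters (none, mean of 20 RPM), TMM, quantile normalization, the run time stamp, leaving out each library and both count tests. Thinning the deeper libraries to the smallest read total was chosen after seeing the data. Intervals of fold changes come from the spread between libraries, and limits for 0 reads cover counting error only, as reads are PCR copies. Coordinates are GENCODE M21 genes on mm10, and promoters are from RefSeq, in which 21 of 30 members matched.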

Additional observations from a re-analysis of the deposited data

How the results depend on the processing

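The number of integrin genes called higher was 8, between 7 and 8 when 1 library was left out, and 5 with a mean of at least 20 RPM. The number called lower was 4, between 3 and 9 when 1 library was left out, and the value of 9 came without BMP9 replicate 4. In the lists of adaptors and ligands 12 genes were higher (8 to 10 when 1 library was left out) and 8 lower (2 to 9). The number lower was 2 with the run stamp as covariate and within the earlier stamp, 3 without a filter, with TMM and with edgeR, and 4 with a mean of at least 20 RPM, quantile normalization and DESeq2. Fewer genes are tested with the higher filter and fewer samples enter the earlier stamp, and the cause of the other changes was not tested. The number of subunit ratios without overlap was 11 to 13 when 1 library was left out, 11 with either pseudocount and 14 within the earlier stamp, where 1 BMP9 library cannot overlap itself. No member called in the main test changed sign in any alternative in which it was tested. TMM moved the share of all calls that were higher from 36.0% to 54.1%. Ratios were not rerun under filters, scalings, covariates or count tests, which were planned for fold changes only. No paired analysis was possible because the groups share no replicate number. Depth limits Itga8, which had 1 to 12 reads per control library, and the 9 members below the filter.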
